A study of Homo sapiens with 24 samples.

Results

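The genes described here are 37 human genes of transforming growth factor beta (TGF-beta) signalling and of the mesenchymal response associated with it. They were chosen by name, and all 37 symbols were found among the 26364 genes of the deposited count table. The cells sequenced were N/TERT-1, which the labels write as nTERT-1, a line of human epidermal keratinocytes immortalised with telomerase. The 4 genotypes were NT, in which neither target gene is named, KAT2A_KD, KAT2B_KD and KAT2AB_KD, in which KAT2A, KAT2B or both were knocked down. Each genotype was sampled at 3 stages of culture, labelled Subconfluent, Confluent and Differentiated, the last of which is day 4 in the deposited sample table. Every group held 2 libraries and all 24 carry the same treatment label, keratinocyte differentiation. How the knockdown was made, and whether each genotype is 1 clone or a pool, is not given in the sources used here. KAT2A (also called GCN5) and KAT2B (also called PCAF) are paralogous histone acetyltransferases, enzymes that add acetyl groups to histone tails at active genes.

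TGF-beta ligands are secreted in a latent form held in the matrix by latent TGF-beta binding proteins, and once released they bring type II and type I receptor kinases together. The type I receptor phosphorylates SMAD2 and SMAD3, which join SMAD4, enter the nucleus and act at target promoters. Many targets, among them SMAD7, SKIL and PMEPA1, restrain the pathway in turn. In epidermal keratinocytes TGF-beta is known for slowing proliferation, for inducing matrix and contractile genes, and for the partial mesenchymal change of migrating cells in wounds, while bone morphogenetic proteins (BMPs) act through other SMADs on targets such as the ID genes.

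Promoter sequence was available for 31 of the 37 genes in a RefSeq table of build GRCh38.p14, in windows of 250 bases before and 50 bases after each start; the read counts themselves were made on hg19. The letters searched on both strands were GTCTAGAC (the palindromic SMAD-binding element), CAGAC (the letters SMAD proteins are best known to contact), GGCGCC (a GC-rich SMAD element) and GGAATG (the motif of TEAD factors, through which YAP acts). Of all 35116 windows, GTCTAGAC was in 0.202%, CAGAC in 45.3%, GGCGCC in 19.2% and GGAATG in 14.0%. The 31 matched genes held them in at least 1 window of 1, 19, 14 and 7 genes, and of all 27305 genes with windows 70, 13649, 6011 and 4567 genes did so; genes differ in how many windows are listed. A match describes the letters only. The 250 bases before the start are printed for 4 genes whose values are followed through the results, the promoter of CTGF being listed under its current symbol CCN2 and that of PMEPA1 being the first of 4 listed. Capitals mark the motif letters, read 5′ to 3′ on the gene's strand; CAGAC on the other strand reads GTCTG. In these 4 windows no motif overlapped another. The CTGF window (chr6:131951373-131951622, minus strand) held 3 copies of GGAATG, beginning 169, 104 and 95 bases before the start, and CAGAC 177 bases before it. SMAD6 (chr15:66701986-66702235, plus strand) was the gene with GTCTAGAC, which began 12 bases before the start. The SKIL window (chr3:170357465-170357714, plus strand) held GGCGCC and GTCTG, and the PMEPA1 window (chr20:57711473-57711722, minus strand) held GGCGCC. PMEPA1 was also among the 19 genes with CAGAC, through a window other than the one printed.
CTGF: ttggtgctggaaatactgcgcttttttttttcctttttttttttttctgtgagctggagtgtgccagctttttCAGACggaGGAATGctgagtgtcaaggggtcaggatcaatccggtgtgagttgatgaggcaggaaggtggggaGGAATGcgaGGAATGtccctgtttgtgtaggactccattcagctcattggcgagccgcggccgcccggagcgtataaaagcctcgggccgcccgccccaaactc
SMAD6: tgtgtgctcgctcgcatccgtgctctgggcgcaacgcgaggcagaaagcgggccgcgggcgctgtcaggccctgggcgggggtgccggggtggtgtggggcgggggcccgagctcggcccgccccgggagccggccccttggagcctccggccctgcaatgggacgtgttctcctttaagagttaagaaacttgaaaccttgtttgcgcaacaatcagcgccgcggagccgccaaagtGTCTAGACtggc
SKIL: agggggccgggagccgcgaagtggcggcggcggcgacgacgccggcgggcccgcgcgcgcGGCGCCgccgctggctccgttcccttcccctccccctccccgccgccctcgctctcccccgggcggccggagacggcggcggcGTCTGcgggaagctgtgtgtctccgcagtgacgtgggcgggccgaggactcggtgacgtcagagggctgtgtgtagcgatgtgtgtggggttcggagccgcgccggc
PMEPA1: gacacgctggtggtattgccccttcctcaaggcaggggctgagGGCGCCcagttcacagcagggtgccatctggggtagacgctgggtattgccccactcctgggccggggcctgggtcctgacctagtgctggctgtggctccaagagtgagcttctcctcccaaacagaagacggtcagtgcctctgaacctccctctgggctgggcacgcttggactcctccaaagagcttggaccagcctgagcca

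Library totals ran from 8010178 to 16054003 counts, and the correlation between the 2 libraries of a group, across genes on the log2 scale, was 0.963 to 0.982. KAT2A stood at 9.995 to 38.5 CPM (counts scaled to a common library total) over the 6 NT libraries and at 1.67 to 10.4 over the 12 libraries in which it was targeted, with the NT libraries above the targeted ones at each stage. KAT2B stood at 4.06 to 44.9 CPM in NT and at 0.152 to 18.9 where it was targeted, again separated at each stage. In NT, KAT2B was 4.76 to 5.58 CPM at Subconfluent, 4.06 to 4.32 at Confluent and 40.4 to 44.9 at Differentiated. KAT2A in NT was 30.1 to 32.7 CPM at Subconfluent, 36.4 to 38.5 at Confluent and 9.995 to 12.8 at Differentiated. KAT2B in KAT2A_KD was 4.885 to 5.21 CPM at Subconfluent, 6.89 to 7.85 at Confluent and 39.6 to 43.7 at Differentiated. KAT2A in KAT2B_KD was 24.8 to 25.3 CPM at Subconfluent, 37.2 to 38.1 at Confluent and 13.6 to 17.04 at Differentiated. At Subconfluent KAT2A was 8.29 and 10.4 CPM in KAT2AB_KD and 3.46 and 4.115 in KAT2A_KD. The 2 KAT2AB_KD Confluent libraries were unequal, at 2.96 and 0.902 CPM of KAT2B and 7.35 and 1.67 of KAT2A. The 2 KAT2AB_KD Differentiated libraries were also unequal, at 5.85 and 18.9 CPM of KAT2B and 1.98 and 6.845 of KAT2A. KAT2B was 4.58 and 8.59 CPM in KAT2B_KD at that stage. All 10 keratinocyte markers checked were expressed, with KRT5 at 7108 CPM or more in every library. Of 14 fibroblast markers 11 never reached 2 CPM, whereas FAP (5.56 to 29.6 CPM) and PDPN (5.34 to 23.1) had reads in every library and TWIST2 reached 6.01. Most of each sum over the 14 markers given below was FAP and PDPN. The 7 melanocyte markers summed to 4.71 to 17.7 CPM; MITF, PMEL and SOX10 had reads in all 24 libraries, at up to 11.7, 8.30 and 6.77 CPM, and TYR was at 0 in all. The 5 endothelial markers summed to 3.46 CPM at most, VWF reaching 3.46, and CDH5 was at 0 in all 24 libraries. The summed level of 6 interferon-response genes was 754 to 820 CPM in the 2 NT Confluent libraries and 22.8 to 340.1 CPM in the other 22; its part in comparisons that use NT Confluent was not tested. The labels do not say that the 2 libraries of a group came from separate cultures, so each p-value reflects library-to-library spread alone, which may be technical. In bulk RNA, fewer cells of a kind and less RNA per cell cannot be told apart.

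Differentiation of NT cells changed most of the set, at a step that also changed 50.4% of all genes tested. The passage from Subconfluent to Confluent moved a few genes down. Of the 37 genes 36 had enough counts to be tested; ZEB1, an E-box repressor of epithelial genes, did not exceed 0.719 CPM in any library. Calls were made with edgeR's quasi-likelihood test at a Benjamini-Hochberg adjusted p below 0.05 over all 15757 genes tested, and a value given as a number ± SE is a log2 fold change with its standard error. From Subconfluent to Confluent in NT, 0 genes of the set were higher and 5 were lower, where 0.901% of all genes were called (0.685% higher and 0.216% lower). For the higher side, 4 genes had an unadjusted p below 0.05 and DESeq2 called 0. From Confluent to Differentiated in NT, 11 rose and 13 fell, so 24 of 36 were called where 50.4% of all genes were (24.3% higher, 26.1% lower). The median log2 change over the set was -0.46 for the first step and -0.19 for the second, beside 0.00 and -0.01 over all genes. With the low-count groups set at their bound these medians were -0.53 and -0.10. Both steps share the Confluent libraries.

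Few early calls and many late ones were also counted in the knockdown genotypes, in the set as over all genes. At the first step, KAT2A_KD had 1 gene higher and 3 lower (background 0.235%, being 0.159% higher and 0.0762% lower), KAT2B_KD 2 higher and 6 lower (background 1.61%, being 1.09% higher and 0.52% lower), and KAT2AB_KD 0 higher and 7 lower (background 0.609%, being 0.343% higher and 0.267% lower). In KAT2AB_KD 2 genes were higher at an unadjusted p below 0.05, and DESeq2 called 2 higher. On differentiation, KAT2A_KD had 12 higher and 6 lower (background 43.1%, being 21.4% higher and 21.7% lower), KAT2B_KD 7 higher and 12 lower (background 39.6%, being 19.3% higher and 20.3% lower), and KAT2AB_KD 12 higher and 8 lower (background 46.2%, being 22.6% higher and 23.6% lower). SMAD6, SMAD7, SKIL, ID1, ID2, ID3 and COL1A1 rose on differentiation in all 4 genotypes. FSTL3, TGFBR2, CTGF, AKAP12, TPM2 and SPARC fell on differentiation in all 4. The share of all genes called in 1 direction in all 4 genotypes was not counted, so these 7 and 6 genes have no background. Of the 105 calls of these 8 comparisons, 69 were kept when each library was left out in turn. At Differentiated the 14 fibroblast markers summed to 15.5 to 15.7 CPM in NT, down from 35.7 to 45.3 at Confluent, and their part in the stage changes was not tested. FAP and PDPN made up most of both sums. Leaving out 1 library gave 1 call in NT at the first step, whichever of its 4 libraries was left out.

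**Figure D1:**
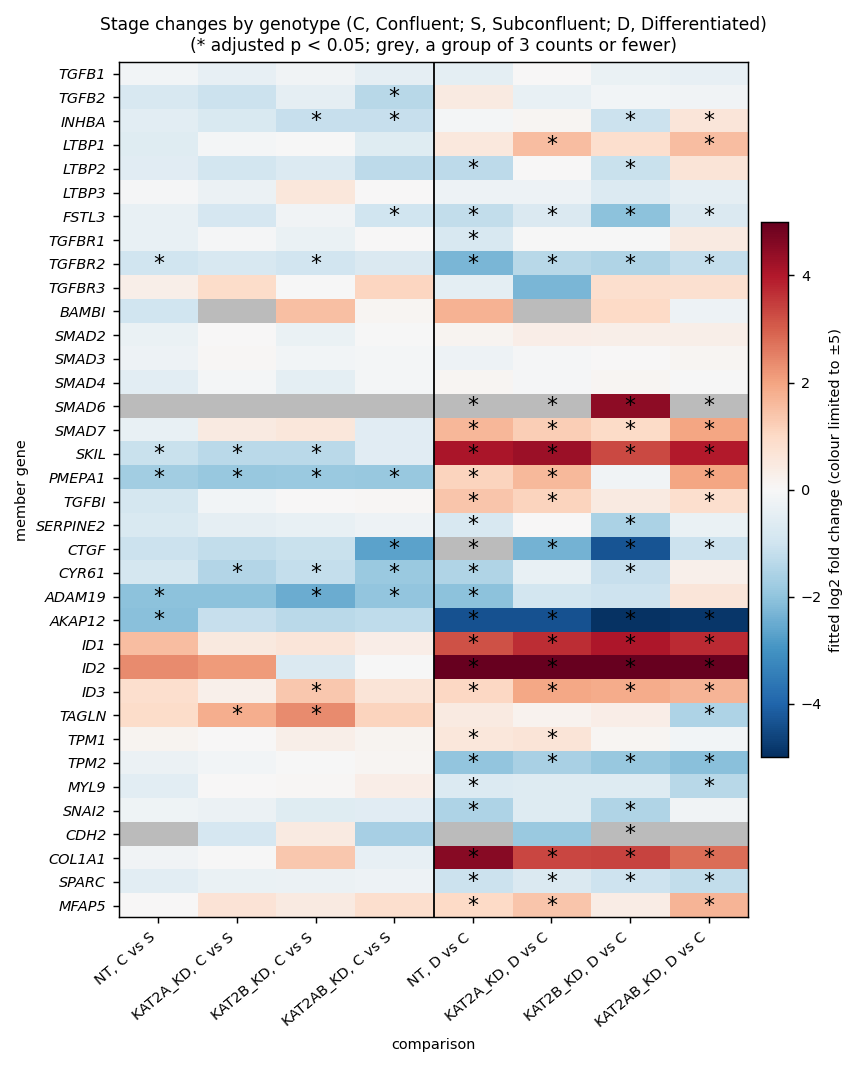
Fitted log2 fold change of the 36 tested genes (vertical axis) in 8 stage comparisons (horizontal axis), Confluent against Subconfluent on the left and Differentiated against Confluent on the right, for NT, KAT2A_KD, KAT2B_KD and KAT2AB_KD. Stars mark adjusted p below 0.05 and grey marks a group of 3 counts or fewer; the 7 genes called higher on differentiation in all 4 genotypes stand as lines of red on the right, with grey cells for SMAD6.

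Knockdown moved fewer genes of the set than differentiation did, as was so over all genes. The genes moved were spread over extracellular regulators, a receptor, a nuclear repressor, targets, contractile and matrix genes. The 9 comparisons with NT share the NT libraries of their stage. At Subconfluent, KAT2A_KD and KAT2B_KD each had 0 genes higher and 1 lower, against backgrounds of 0.343%, being 0.267% higher and 0.0762% lower, in the first, and 0.0888%, being 0.019% higher and 0.0698% lower, in the second. For the higher side, 8 and 2 genes had an unadjusted p below 0.05, and DESeq2 called 0 and 1. KAT2AB_KD had 3 higher and 3 lower at that stage, against a background of 2.7%, being 1.86% higher and 0.838% lower. At Confluent, KAT2A_KD had 2 higher and 1 lower (background 0.647%, being 0.267% higher and 0.381% lower), KAT2B_KD 0 higher and 1 lower (background 0.463%, being 0.0698% higher and 0.393% lower; 2 higher unadjusted, 0 by DESeq2), and KAT2AB_KD 3 higher and 3 lower (background 2.28%, being 1.39% higher and 0.888% lower). At Differentiated, KAT2A_KD had 2 higher and 1 lower, against a background of 1.22%, being 0.92% higher and 0.298% lower. KAT2B_KD had 0 higher and 4 lower (background 4.85%, being 1.67% higher and 3.18% lower), with 3 genes higher at an unadjusted p below 0.05 and 0 by DESeq2. KAT2AB_KD had 4 higher and 0 lower (background 2.74%, being 1.57% higher and 1.17% lower), with 5 lower unadjusted and 1 by DESeq2. With 36 genes tested, the median log2 difference from NT over the set lay between -0.21 (KAT2B_KD, Subconfluent) and 0.26 (KAT2A_KD, Differentiated). Over all genes it was -0.01 and 0.01 there. With genes of few counts set or left out as above, the ends were -0.23 and 0.26.

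In all, 13 genes differed from NT in at least 1 knockdown and stage: LTBP1, LTBP2, FSTL3, TGFBR1, SKIL, PMEPA1, SERPINE2, CTGF, CYR61, AKAP12, TAGLN, COL1A1 and MFAP5. None of the core signal carriers SMAD2, SMAD3 and SMAD4 was among them. The share of all genes called in at least 1 of the 9 comparisons with NT was not counted, so the 13 have no background. Of these 29 calls, 8 were kept when each library was left out in turn. The 8 were MFAP5 in KAT2A_KD Subconfluent, KAT2AB_KD Subconfluent, KAT2AB_KD Confluent and KAT2B_KD Differentiated, TAGLN in KAT2AB_KD Subconfluent and Confluent, LTBP2 in KAT2AB_KD Confluent and PMEPA1 in KAT2B_KD Differentiated. The other calls were lost without at least 1 library.

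**Figure D2:**
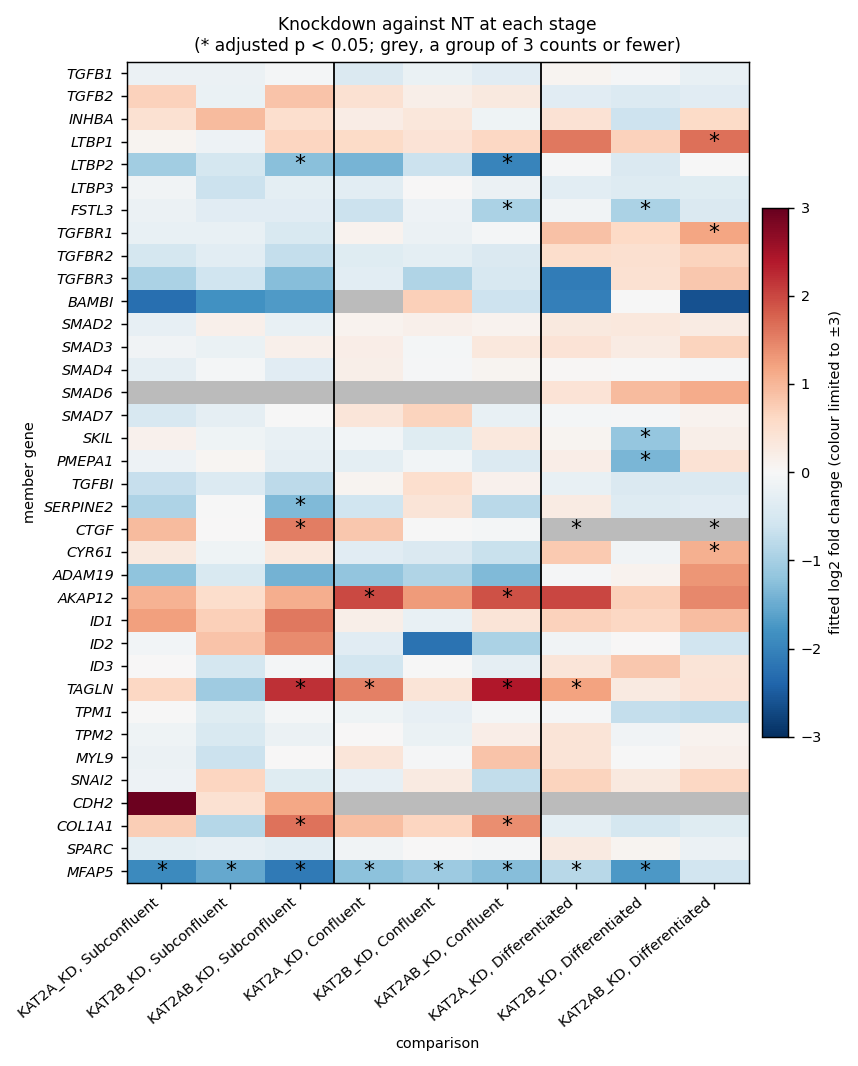
Fitted log2 difference from NT of the 36 tested genes (vertical axis) in the 3 knockdown genotypes at each of the 3 stages (horizontal axis). Stars mark adjusted p below 0.05 and grey marks a group of 3 counts or fewer; MFAP5, in the last line, is starred in 8 of the 9 columns and blue throughout.

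Among the ligands, INHBA was called most often and TGFB1 in no comparison. TGFB1, the main TGF-beta isoform of many tissues, lay between 30.8 and 83.7 CPM over the 24 libraries. TGFB2, a second TGF-beta isoform, stood at 14.5 and 16.5 CPM in NT, 25.1 and 25.2 in KAT2A_KD, 12.3 and 14.7 in KAT2B_KD, and 25.1 and 30.9 in KAT2AB_KD at Subconfluent. The 4 libraries of KAT2A_KD and KAT2AB_KD were above the 4 of NT and KAT2B_KD, but the differences from NT, 0.70 ± 0.30 SE (adjusted p = 0.727) and 0.86 ± 0.30 SE (adjusted p = 0.157), did not pass. By Confluent TGFB2 was 7.33 to 12.7 CPM in all genotypes, and its fall was called in KAT2AB_KD (log2 fold change -1.39 ± 0.30 SE, adjusted p = 0.0389). That call was lost without any 1 of the 4 libraries (adjusted p from 0.115 to 0.443).

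INHBA encodes the subunit of activin A, a ligand that signals through SMAD2 and SMAD3 by its own receptors. At Subconfluent it stood at 47.8 and 41.2 CPM in NT, 60.9 and 61.6 in KAT2A_KD, 90.8 and 81.8 in KAT2B_KD, and 63.03 and 62.5 in KAT2AB_KD. All 6 knockdown libraries were above both NT libraries, the widest gap being KAT2B_KD, at 0.95 ± 0.22 SE (adjusted p = 0.0954), which was not called. Its fall at Confluent was called in KAT2B_KD (log2 fold change -1.16 ± 0.22 SE, adjusted p = 0.00718) and in KAT2AB_KD (log2 fold change -1.17 ± 0.22 SE, adjusted p = 0.0133). The first was lost without either KAT2B_KD Confluent library (adjusted p = 0.0915 and 0.0849) and without KAT2B_KD Subconfluent library 1 (adjusted p = 0.0717), and the second without any 1 of the 4 libraries (adjusted p from 0.0701 to 0.193). At Differentiated INHBA was 35.9 and 20.9 CPM in NT, 38.6 and 38.4 in KAT2A_KD, 18.8 and 18.2 in KAT2B_KD, and 51.2 and 33.2 in KAT2AB_KD. It fell further in KAT2B_KD (log2 fold change -1.06, adjusted p = 0.000748) and rose in KAT2AB_KD (log2 fold change 0.59, adjusted p = 0.0308), the rise being lost without either KAT2AB_KD Confluent library (adjusted p = 0.052 and 0.17) and without KAT2AB_KD Differentiated library 1 (adjusted p = 0.382). In NT and KAT2A_KD the log2 changes were -0.10 and 0.10, adjusted p = 0.718 and 0.741. No knockdown was called to differ from NT in INHBA at Differentiated. The edgeR test of the difference between each knockdown's change and that of NT did not pass. On the log2 scale it gave 0.205 in KAT2A_KD (adjusted p = 0.914), -0.96 in KAT2B_KD (adjusted p = 0.172) and 0.70 in KAT2AB_KD (adjusted p = 0.361).

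Of the latency proteins and extracellular regulators, LTBP2 was lower in the double knockdown at Subconfluent and Confluent, FSTL3 was lower in it at Confluent, and LTBP1 was higher in it at Differentiated. LTBP2, a microfibril-associated protein of the latent binding protein family, stood at 94.5 and 58.5 CPM in NT, 33.8 and 40.99 in KAT2A_KD, 38.6 and 66.9 in KAT2B_KD, and 32.04 and 31.7 in KAT2AB_KD at Subconfluent. At Confluent its level was 50.2 and 52.8 CPM in NT, 16.3 and 23.2 in KAT2A_KD, 33.5 and 32.7 in KAT2B_KD, and 15.6 and 10.3 in KAT2AB_KD. Both KAT2A_KD and both KAT2AB_KD libraries were below both NT libraries at each of these stages. In KAT2AB_KD it was lower by 2.40-fold at Subconfluent (log2 fold change -1.26 ± 0.32 SE, adjusted p = 0.0374) and by 3.96-fold at Confluent (log2 fold change -1.99 ± 0.33 SE, adjusted p = 0.00143). The Subconfluent call was lost without either KAT2AB_KD Subconfluent library (adjusted p = 0.238 and 0.227) and without NT Subconfluent library 1 (adjusted p = 0.286). In KAT2A_KD the differences were -1.03 ± 0.32 SE (adjusted p = 0.303) and -1.39 ± 0.33 SE (adjusted p = 0.0587), and neither passed. At Differentiated LTBP2 was 11.8 to 25.9 CPM and the genotypes overlapped. The fall into Differentiated was called in NT (log2 fold change -1.32, adjusted p = 0.00217) and KAT2B_KD (log2 fold change -1.12, adjusted p = 0.0103). Those calls were lost without NT Differentiated library 2 (adjusted p = 0.0551) and without KAT2B_KD Confluent library 1 (adjusted p = 0.0567) and without KAT2B_KD Differentiated library 1 (adjusted p = 0.137).

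FSTL3, a secreted protein that binds and neutralises activin, stood at 150.1 and 115 CPM in NT, 90.8 and 78.1 in KAT2A_KD, 110.5 and 129 in KAT2B_KD, and 59.3 and 77.2 in KAT2AB_KD at Confluent. At Differentiated its level was 60.2 and 51.96 CPM in NT, 53.6 and 50.1 in KAT2A_KD, 27.9 and 30.6 in KAT2B_KD, and 46.5 and 36.05 in KAT2AB_KD. At Subconfluent it stood at 142 and 199 CPM in NT, and the higher of the 2 KAT2AB_KD libraries stood at 141; the difference, -0.33 ± 0.20 SE (adjusted p = 0.474), was not called. At Confluent both KAT2AB_KD libraries were below the other 6 (log2 fold change -0.96 ± 0.20 SE, adjusted p = 0.0116), and at Differentiated both KAT2B_KD libraries were the lowest of 8 (log2 fold change -0.94 ± 0.21 SE, adjusted p = 0.0104). The first call was lost without KAT2AB_KD Confluent library 1 (adjusted p = 0.224) and without NT Confluent library 1 (adjusted p = 0.22), the second without KAT2B_KD Differentiated library 1 (adjusted p = 0.0979) and without NT Differentiated library 1 (adjusted p = 0.0919). FSTL3 fell on differentiation in NT (log2 fold change -1.24, adjusted p = 4.7e-05) and by 4.10-fold in KAT2B_KD (log2 fold change -2.04 ± 0.21 SE, adjusted p = 2.67e-07). The smaller falls in KAT2A_KD (-0.70, adjusted p = 0.00866) and KAT2AB_KD (-0.72, adjusted p = 0.0066) were lost without KAT2A_KD Confluent library 1 (adjusted p = 0.0792) and without KAT2A_KD Differentiated library 2 (adjusted p = 0.0675) and without KAT2AB_KD Confluent library 2 (adjusted p = 0.0946) and without KAT2AB_KD Differentiated library 2 (adjusted p = 0.0874). In KAT2AB_KD it also fell from Subconfluent to Confluent (log2 fold change -0.99 ± 0.20 SE, adjusted p = 0.0283), which was lost without any 1 of the 4 libraries (adjusted p from 0.0612 to 0.298).

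LTBP1, which tethers the latent TGF-beta complex to the matrix, had low counts, 1.81 to 6.97 CPM over the 16 libraries before differentiation. At Differentiated it stood at 5.43 and 2.64 CPM in NT, 10.5 and 13.7 in KAT2A_KD, 6.45 and 6.73 in KAT2B_KD, and 11.4 and 13.9 in KAT2AB_KD. The KAT2A_KD and KAT2AB_KD libraries lay above the other 4. The difference from NT was called in KAT2AB_KD (log2 fold change 1.64 ± 0.44 SE, adjusted p = 0.0492) and lost without any 1 of the 4 libraries (adjusted p from 0.0748 to 0.409); in KAT2A_KD it was 1.58 ± 0.44 SE (adjusted p = 0.0903). The rise on differentiation was called in the same genotypes, KAT2A_KD (log2 fold change 1.53, adjusted p = 0.00814) and KAT2AB_KD (log2 fold change 1.55, adjusted p = 0.00566), and was lost without KAT2A_KD Confluent library 1 (adjusted p = 0.0844) and without KAT2A_KD Differentiated library 2 (adjusted p = 0.0593) and without KAT2AB_KD Confluent library 2 (adjusted p = 0.0949). LTBP3, another carrier of latent TGF-beta, lay between 4.55 and 13.8 CPM and was called in no comparison.

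Of the receptors, TGFBR2 fell at each step in NT, and TGFBR1 was the one receptor called against NT. TGFBR2, the type II kinase that binds the ligand first, stood in NT at 236 and 228 CPM at Subconfluent, 120.4 and 113 at Confluent and 29.4 and 18.4 at Differentiated. It fell 4.88-fold on differentiation in NT (log2 fold change -2.29 ± 0.23 SE, adjusted p = 1.01e-07). The falls in KAT2A_KD, KAT2B_KD and KAT2AB_KD were -1.40, -1.51 and -1.18 on the log2 scale, with adjusted p = 3.91e-05, 2.07e-05 and 0.0002. The earlier fall at Confluent was called in NT (log2 fold change -0.99 ± 0.22 SE, adjusted p = 0.0276) and KAT2B_KD (log2 fold change -0.97 ± 0.22 SE, adjusted p = 0.025). Each was lost without any 1 of its 4 libraries, at adjusted p from 0.123 to 0.263 in NT and from 0.0933 to 0.279 in KAT2B_KD. Against NT, TGFBR2 at Subconfluent was 236 and 228 CPM in NT, 161 and 159 in KAT2A_KD, 176 and 194 in KAT2B_KD, and 157 and 127 in KAT2AB_KD. All 6 knockdown libraries were below both NT libraries, but the differences, -0.54, -0.33 and -0.71 on the log2 scale, did not pass (adjusted p = 0.631, 1 and 0.089).

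TGFBR1, the type I kinase that phosphorylates SMAD2 and SMAD3, stood at 17.96 and 11.3 CPM in NT, 32.7 and 21.6 in KAT2A_KD, 22.3 and 22.3 in KAT2B_KD, and 40.1 and 26.2 in KAT2AB_KD at Differentiated. All 6 knockdown libraries were above both NT libraries, and the difference was called in KAT2AB_KD (log2 fold change 1.18 ± 0.25 SE, adjusted p = 0.0174) but not in KAT2A_KD (0.89 ± 0.26 SE, adjusted p = 0.0995) or KAT2B_KD (0.60 ± 0.26 SE, adjusted p = 0.202). The KAT2AB_KD call was lost without KAT2AB_KD Differentiated library 1 (adjusted p = 0.161) and without NT Differentiated library 2 (adjusted p = 0.259). In NT TGFBR1 fell on differentiation (log2 fold change -0.79, adjusted p = 0.0143), a call lost without NT Confluent library 1 (adjusted p = 0.0702) and without NT Differentiated library 2 (adjusted p = 0.229). TGFBR3, the co-receptor betaglycan, was 0 to 4.37 CPM, and BAMBI, a decoy receptor without a kinase domain, was 0 to 1.31 CPM. No comparison called either. BAMBI at Differentiated was 1.31 and 1.23 CPM in NT, 0.328 and 0.269 in KAT2A_KD, 1.31 and 1.20 in KAT2B_KD, and 0.330 and 0.0761 in KAT2AB_KD. The KAT2A_KD and KAT2AB_KD libraries were below both NT libraries, and neither difference passed (adjusted p = 0.339 and 0.171).

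No comparison called the signal-carrying SMADs, while the inhibitory SMADs and the repressor SKIL rose on differentiation. Over the 24 libraries the receptor-regulated SMAD2 and SMAD3 lay between 37.6 and 59.6 and between 26.5 and 62.8 CPM, and the common partner SMAD4 between 21.9 and 37.01. At an unadjusted p below 0.05 edgeR had them in 5 of their 96 tests over 32 comparisons, and DESeq2 called 0. SMAD7, which blocks the type I receptor, stood in NT at 3.70 and 3.43 CPM at Subconfluent, 2.51 and 2.99 at Confluent and 9.64 and 7.73 at Differentiated. It rose on differentiation in NT (log2 fold change 1.65, adjusted p = 0.000562), KAT2A_KD (log2 fold change 1.23, adjusted p = 0.00684), KAT2B_KD (log2 fold change 0.94, adjusted p = 0.032) and KAT2AB_KD (log2 fold change 1.99, adjusted p = 0.000101). The KAT2A_KD call was lost without KAT2A_KD Confluent library 2 (adjusted p = 0.0754) and without KAT2A_KD Differentiated library 1 (adjusted p = 0.101), and the KAT2B_KD call without any 1 of the 4 libraries (adjusted p from 0.0505 to 0.136). SMAD7 levels at Differentiated, 6.47 to 10.1 CPM, overlapped between genotypes.

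SMAD6, the inhibitory SMAD whose window holds the full SMAD-binding element, is best known for restraining BMP signalling. It had 0 reads in the Confluent libraries of NT, KAT2A_KD and KAT2AB_KD, and 6 reads in those of KAT2B_KD. At Differentiated it stood at 2.72 and 3.02 CPM in NT, 5.32 and 2.33 in KAT2A_KD, 5.33 and 5.75 in KAT2B_KD, and 7.50 and 4.87 in KAT2AB_KD. Against a floor of 3 counts per group the rise was at least 25.5-fold in NT, at least 28.3-fold in KAT2A_KD and at least 68.1-fold in KAT2AB_KD, with adjusted p = 0.000807, 0.000828 and 0.000151. In KAT2B_KD the fitted change was 4.46 (adjusted p = 0.00273), and DESeq2 gave it an adjusted p of 0.135. The floor and such bounds cover counting error only.

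SKIL encodes SnoN, a repressor of SMAD complexes and itself a TGF-beta target. It stood in NT at 17.5 and 16.7 CPM at Subconfluent, 8.79 and 7.05 at Confluent and 138 and 134 at Differentiated. The fall at Confluent was called in NT (log2 fold change -1.11 ± 0.23 SE, adjusted p = 0.0207), KAT2A_KD (log2 fold change -1.34 ± 0.24 SE, adjusted p = 0.0108) and KAT2B_KD (log2 fold change -1.34 ± 0.24 SE, adjusted p = 0.00477). These were lost without any 1 of the 4 libraries (adjusted p from 0.0701 to 0.284) in NT, without KAT2A_KD Confluent library 1 (adjusted p = 0.288) and without either KAT2A_KD Subconfluent library (adjusted p = 0.197 and 0.0848), and without KAT2B_KD Confluent library 1 (adjusted p = 0.12) and without KAT2B_KD Subconfluent library 2 (adjusted p = 0.0515). On differentiation SKIL rose 17.1-fold in NT (log2 fold change 4.10 ± 0.25 SE, adjusted p = 1.12e-10), 19.2-fold in KAT2A_KD, 9.87-fold in KAT2B_KD and 15.6-fold in KAT2AB_KD, each kept without any 1 library. At Differentiated it was 138 and 134 CPM in NT, 168 and 118 in KAT2A_KD, 69.96 and 52.5 in KAT2B_KD, and 169.5 and 137 in KAT2AB_KD. Both KAT2B_KD libraries were below the other 6, and the difference from NT was called (log2 fold change -1.15 ± 0.22 SE, adjusted p = 0.00355). That call was lost without KAT2B_KD Differentiated library 2 (adjusted p = 0.0522).

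Among the targets, PMEPA1 fell with confluence in all 4 genotypes and rose again on differentiation in all but KAT2B_KD. PMEPA1 is a membrane protein that sequesters receptor-regulated SMADs and is induced by TGF-beta. It stood at 73.3 and 112 CPM in NT, 75.01 and 91.97 in KAT2A_KD, 81.4 and 111 in KAT2B_KD, and 63.96 and 88.2 in KAT2AB_KD at Subconfluent. At Confluent its level was 28.7 and 26.6 CPM in NT, 22.7 and 22.3 in KAT2A_KD, 23.3 and 29.1 in KAT2B_KD, and 19.2 and 22.1 in KAT2AB_KD. All 8 Confluent libraries were below all 8 Subconfluent libraries. The fall was 3.34-fold in NT (log2 fold change -1.74 ± 0.26 SE, adjusted p = 0.00133) and 3.71-, 3.67- and 3.69-fold in KAT2A_KD, KAT2B_KD and KAT2AB_KD (adjusted p = 0.00207, 0.000517 and 0.00128). Each was kept without any 1 library. At Differentiated PMEPA1 was 65.2 and 55.4 CPM in NT, 83.5 and 53.98 in KAT2A_KD, 23.9 and 22.7 in KAT2B_KD, and 98.9 and 64.7 in KAT2AB_KD. It rose from Confluent in NT (log2 fold change 1.12, adjusted p = 0.0014), KAT2A_KD (log2 fold change 1.61, adjusted p = 6.37e-05) and KAT2AB_KD (log2 fold change 1.99 ± 0.27 SE, adjusted p = 5.53e-06), while KAT2B_KD gave -0.17 ± 0.26 SE (adjusted p = 0.658). The KAT2B_KD libraries were below the other 6 at Differentiated, and below NT by 2.58-fold (log2 fold change -1.37 ± 0.27 SE, adjusted p = 0.00425). The test of the difference between the changes of KAT2B_KD and NT on differentiation did not pass, at -1.29 (95% interval -2.07 to -0.51; adjusted p = 0.119) on the log2 scale.

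TGFBI, a secreted adhesion protein named for its induction by TGF-beta, stood in NT at 448 and 538 CPM at Subconfluent, 246 and 287 at Confluent and 796 and 611 at Differentiated. It rose on differentiation in NT (log2 fold change 1.40 ± 0.23 SE, adjusted p = 3.71e-05), KAT2A_KD (log2 fold change 1.11, adjusted p = 0.000508) and KAT2AB_KD (log2 fold change 0.83, adjusted p = 0.00476), the last being lost without KAT2AB_KD Confluent library 1 (adjusted p = 0.06) and without KAT2AB_KD Differentiated library 2 (adjusted p = 0.0847). KAT2B_KD went from 344 and 408 to 535 and 500.5 CPM, 0.46 ± 0.22 SE (adjusted p = 0.108). Against NT it was called at no stage. SERPINE2 encodes protease nexin-1, an inhibitor of thrombin and plasminogen activators. At Subconfluent it was 70.2 and 78.8 CPM in NT, 36.6 and 41.9 in KAT2A_KD, 79.9 and 68.5 in KAT2B_KD, and 32.1 and 27.4 in KAT2AB_KD. The KAT2A_KD and KAT2AB_KD libraries were all below the NT and KAT2B_KD libraries, and KAT2AB_KD was called (log2 fold change -1.32 ± 0.25 SE, adjusted p = 0.00477), whereas KAT2A_KD was not (-0.92 ± 0.25 SE, adjusted p = 0.165). The KAT2AB_KD call was lost without KAT2AB_KD Subconfluent library 2 (adjusted p = 0.0916) and without NT Subconfluent library 2 (adjusted p = 0.0524). On differentiation SERPINE2 fell in NT (log2 fold change -0.81, adjusted p = 0.0113; lost without NT Confluent library 2, adjusted p = 0.124 and without NT Differentiated library 1, adjusted p = 0.174) and KAT2B_KD (log2 fold change -1.58, adjusted p = 5.31e-05).

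CTGF and CYR61 encode the related matricellular proteins CCN2 and CCN1, which are induced by TGF-beta and also by YAP with TEAD factors. CTGF is the gene with 3 TEAD motif copies printed among the promoters. At Subconfluent it was 13.3 and 12.4 CPM in NT, 27.2 and 22.6 in KAT2A_KD, 18.1 and 7.77 in KAT2B_KD, and 42.3 and 32.6 in KAT2AB_KD. Both KAT2AB_KD libraries were above the other 6, and KAT2AB_KD was called (log2 fold change 1.54 ± 0.38 SE, adjusted p = 0.0313), but the call was lost without any 1 of the 4 libraries (adjusted p from 0.0866 to 0.257). At Confluent CTGF was 5.41 to 13.4 CPM and no difference from NT was called. At Differentiated it was 0.263 and 0 CPM in NT, 2.70 and 1.44 in KAT2A_KD, 0.0935 and 0.448 in KAT2B_KD, and 3.30 and 2.21 in KAT2AB_KD. NT held 3 reads in its 2 libraries together, KAT2A_KD 49 and KAT2AB_KD 69, so that the depth-adjusted ratio to NT was 15.4 (95% counting interval 4.97 to 77.3) and 20.03 (6.57 to 99.5). Both were called, at adjusted p = 0.0217 and 0.00571. The KAT2A_KD call was lost without KAT2A_KD Differentiated library 1 (adjusted p = 0.165) and without NT Differentiated library 2 (adjusted p = 0.205), the KAT2AB_KD call without NT Differentiated library 2 (adjusted p = 0.0801). Beside this, the 14 fibroblast markers summed to 26.3 to 32.3 CPM in KAT2A_KD and 32.2 to 36.3 in KAT2AB_KD at Differentiated, against 15.5 to 15.7 in NT and 14.2 to 17.7 in KAT2B_KD, and their part in the result was not tested. Most of each sum was FAP and PDPN, and 11 of the 14 never reached 2 CPM in any library.

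CTGF fell on differentiation in all 4 genotypes. In NT the ratio of Confluent to Differentiated was 44.4 (95% counting interval 14.9 to 217.5; 162 reads against 3). The fitted changes were -2.35 (adjusted p = 0.000245) in KAT2A_KD, -4.33 ± 0.60 SE (adjusted p = 1.04e-05) in KAT2B_KD and -1.08 (adjusted p = 0.0446) in KAT2AB_KD. The KAT2AB_KD call was lost without any 1 of the 4 libraries (adjusted p from 0.0529 to 0.241) and with other scaling factors (RLE, adjusted p = 0.0556). In KAT2AB_KD it had already fallen at Confluent (log2 fold change -2.69 ± 0.40 SE, adjusted p = 0.00195). CYR61 at Differentiated was 48.97 and 36.2 CPM in NT, 91.7 and 55.05 in KAT2A_KD, 36.4 and 43.3 in KAT2B_KD, and 102 and 76.8 in KAT2AB_KD. KAT2AB_KD was called above NT (log2 fold change 1.07 ± 0.28 SE, adjusted p = 0.0427), a call lost without KAT2AB_KD Differentiated library 1 (adjusted p = 0.198) and without either NT Differentiated library (adjusted p = 0.0855 and 0.346); KAT2A_KD gave 0.78 ± 0.28 SE (adjusted p = 0.191). CYR61 fell at Confluent in KAT2A_KD (log2 fold change -1.48 ± 0.28 SE, adjusted p = 0.0177; lost without any 1 of the 4 libraries, adjusted p from 0.0582 to 0.308), KAT2B_KD (log2 fold change -1.18 ± 0.27 SE, adjusted p = 0.0313; lost without either KAT2B_KD Confluent library, adjusted p = 0.116 and 0.261 and without KAT2B_KD Subconfluent library 1, adjusted p = 0.315) and KAT2AB_KD (log2 fold change -1.86 ± 0.28 SE, adjusted p = 0.00207). It fell on differentiation in NT (log2 fold change -1.49, adjusted p = 0.000182) and KAT2B_KD (log2 fold change -1.14, adjusted p = 0.00277).

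ADAM19, a membrane metalloprotease, and AKAP12, a scaffold for protein kinases, both fell from Subconfluent to Confluent in NT. ADAM19 stood in NT at 20.8 and 17.2 CPM at Subconfluent, 4.79 and 4.27 at Confluent and 1.14 and 1.04 at Differentiated. Its fall at Confluent was called in NT (log2 fold change -2.06 ± 0.42 SE, adjusted p = 0.0168), KAT2B_KD (log2 fold change -2.49 ± 0.45 SE, adjusted p = 0.00512) and KAT2AB_KD (log2 fold change -1.98 ± 0.45 SE, adjusted p = 0.0464). These were lost without any 1 of the 4 libraries (adjusted p from 0.067 to 0.234) in NT, without KAT2B_KD Confluent library 1 (adjusted p = 0.139) and without KAT2B_KD Subconfluent library 2 (adjusted p = 0.0676), and without any 1 of the 4 libraries (adjusted p from 0.128 to 0.463) in KAT2AB_KD. It fell further in NT on differentiation (log2 fold change -2.05, adjusted p = 0.00208). All 6 knockdown libraries at Subconfluent, 6.43 to 16.5 CPM, were below both NT libraries, without a call. AKAP12 at Confluent was 5.03 and 4.70 CPM in NT, 15.2 and 23.4 in KAT2A_KD, 6.83 and 16.98 in KAT2B_KD, and 16.8 and 20.1 in KAT2AB_KD. All 6 knockdown libraries were above both NT libraries, and KAT2A_KD (log2 fold change 1.98 ± 0.45 SE, adjusted p = 0.0482) and KAT2AB_KD (log2 fold change 1.92 ± 0.45 SE, adjusted p = 0.0246) were called. Both calls were lost without any 1 of their 4 libraries, at adjusted p from 0.0808 to 0.473 and from 0.0679 to 0.202. In NT AKAP12 had fallen from Subconfluent to Confluent (log2 fold change -2.10 ± 0.45 SE, adjusted p = 0.0246; lost without any 1 of the 4 libraries, adjusted p from 0.0581 to 0.26). On differentiation it fell in all 4 genotypes, by 20.6-fold in NT, 20.2-fold in KAT2A_KD, 30.4-fold in KAT2B_KD and 28.9-fold in KAT2AB_KD, to 0 to 1.06 CPM. The Differentiated groups held 5, 22, 9 and 16 reads of AKAP12 in that order, so the order of these folds rests on few reads.

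**Figure D3:**
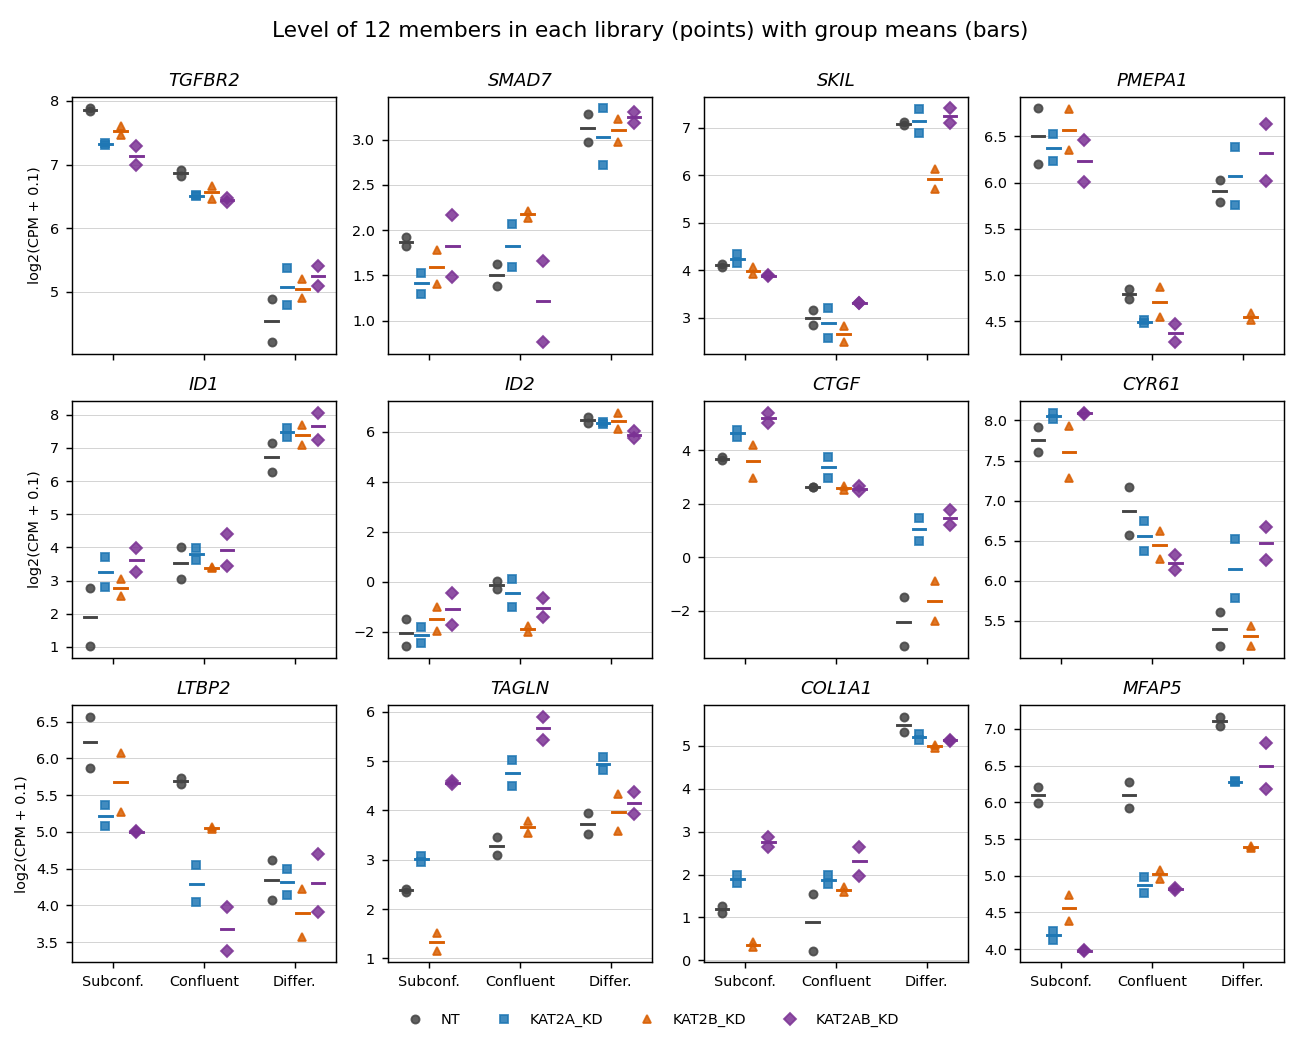
Level of 12 genes in each library, as log2(CPM + 0.1) on the vertical axis, at the 3 stages on the horizontal axis; each point is 1 library, bars are group means, and colour and shape give the genotype. The KAT2B_KD libraries lie below the other 6 for SKIL and PMEPA1 at Differentiated, and the KAT2AB_KD libraries lie above the other 6 for TAGLN at Subconfluent and Confluent.

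The ID genes encode helix-loop-helix proteins without a DNA-binding domain that hold bHLH factors inactive, and they are classic BMP targets. All 3 rose on differentiation in all 4 genotypes, and knockdown was not called to change any of them. ID2 was 0.0661 to 0.968 CPM over the 16 libraries before differentiation and 81.3 and 95.6 CPM in NT, 84.5 and 79.8 in KAT2A_KD, 109 and 70.1 in KAT2B_KD, and 65.6 and 53.5 in KAT2AB_KD at Differentiated. It rose 107-fold in NT (log2 fold change 6.74 ± 0.39 SE, adjusted p = 6.27e-11), and the log2 changes in KAT2A_KD, KAT2B_KD and KAT2AB_KD were 6.96, 8.98 and 7.13. The Confluent groups held 22 reads of ID2 in NT and 14, 4 and 14 in these, so the sizes of the rises rest on few reads. ID1 went in NT from 8.16 and 16.02 to 78.05 and 143 CPM (log2 fold change 3.19 ± 0.49 SE, adjusted p = 2.26e-05) and rose 12.9- to 16.4-fold in the knockdown genotypes. ID3 rose 2.04-fold in NT (log2 fold change 1.03, adjusted p = 0.00982), 3.83-fold in KAT2A_KD, 3.62-fold in KAT2B_KD and 3.21-fold in KAT2AB_KD. The NT call of ID3 was lost without NT Confluent library 1 (adjusted p = 0.12) and without NT Differentiated library 1 (adjusted p = 0.0507). ID3 also rose at Confluent in KAT2B_KD (log2 fold change 1.35 ± 0.32 SE, adjusted p = 0.0349), a call lost without any 1 of the 4 libraries (adjusted p from 0.078 to 0.345).

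Of the contractile genes, TAGLN was the one changed by knockdown. TAGLN encodes transgelin, an actin-binding protein of smooth muscle and of cells responding to TGF-beta. At Subconfluent it was 5.02 and 5.24 CPM in NT, 7.61 and 8.31 in KAT2A_KD, 2.13 and 2.74 in KAT2B_KD, and 22.96 and 23.9 in KAT2AB_KD. At Confluent its level was 10.9 and 8.40 CPM in NT, 32.6 and 22.6 in KAT2A_KD, 13.7 and 11.5 in KAT2B_KD, and 43.2 and 59.5 in KAT2AB_KD. At both stages the 2 KAT2AB_KD libraries were the highest of 8. The rise over NT in KAT2AB_KD was 4.57-fold at Subconfluent (log2 fold change 2.19 ± 0.29 SE, adjusted p = 0.000159) and 5.32-fold at Confluent (log2 fold change 2.41 ± 0.28 SE, adjusted p = 4.59e-05). KAT2A_KD was called at Confluent (log2 fold change 1.52 ± 0.27 SE, adjusted p = 0.00866) and Differentiated (log2 fold change 1.21 ± 0.27 SE, adjusted p = 0.0338), and at Subconfluent gave 0.63 ± 0.29 SE (adjusted p = 0.818). Those calls were lost without KAT2A_KD Confluent library 1 (adjusted p = 0.122) and without either NT Confluent library (adjusted p = 0.0544 and 0.169) at Confluent, and without any 1 of the 4 libraries (adjusted p from 0.0905 to 0.234) at Differentiated. At Differentiated TAGLN was 11.4 and 15.3 CPM in NT, 28 and 33.8 in KAT2A_KD, 20.1 and 11.96 in KAT2B_KD, and 20.5 and 15.1 in KAT2AB_KD, so that KAT2AB_KD was 0.42 ± 0.27 SE (adjusted p = 0.495) from NT and was not called.

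In NT the level of TAGLN was 5.02 and 5.24 CPM at Subconfluent, 10.9 and 8.40 at Confluent and 11.4 and 15.3 at Differentiated, and no stage change was called. It rose at Confluent in KAT2A_KD (log2 fold change 1.80 ± 0.28 SE, adjusted p = 0.00495; lost without either KAT2A_KD Subconfluent library, adjusted p = 0.166 and 0.0893) and KAT2B_KD (log2 fold change 2.36 ± 0.31 SE, adjusted p = 0.000172). In KAT2AB_KD it fell on differentiation (log2 fold change -1.53, adjusted p = 0.000102). The 5 smooth muscle and pericyte markers, ACTA2, MYH11, DES, CNN1 and RGS5, summed to 791 to 798 CPM in KAT2AB_KD and 694 to 929 in NT at Subconfluent, and to 542 to 622 and 705 to 778 at Confluent. Most of each sum was ACTA2. ACTA2 reads share sequence with other actin genes. The 7 melanocyte markers summed to 16.4 to 17.7 CPM in KAT2AB_KD and 8.39 to 8.93 in NT at Subconfluent, and to 6.94 to 8.57 and 4.71 to 5.41 at Confluent, so they were higher at both stages at which TAGLN and COL1A1 were higher, and at Subconfluent, where CTGF was; their part was not tested.

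TPM1 and TPM2 encode tropomyosins and MYL9 the regulatory light chain of non-muscle and smooth muscle myosin. TPM2 stood in NT at 85.3 and 89.6 CPM at Subconfluent, 91.7 and 52.5 at Confluent and 21.02 and 15.2 at Differentiated and fell 3.98-fold on differentiation (log2 fold change -1.99 ± 0.25 SE, adjusted p = 1.9e-06). The fall was 3.05-, 3.72- and 4.24-fold in KAT2A_KD, KAT2B_KD and KAT2AB_KD. TPM1 went the other way in NT (log2 fold change 0.55, adjusted p = 0.0476) and KAT2A_KD (log2 fold change 0.64, adjusted p = 0.0263), calls lost without either NT Confluent library (adjusted p = 0.0951 and 0.204) and without NT Differentiated library 1 (adjusted p = 0.369) and without KAT2A_KD Confluent library 2 (adjusted p = 0.181) and without KAT2A_KD Differentiated library 1 (adjusted p = 0.382). At Differentiated TPM1 was 177 and 126 CPM in NT, 179 and 114 in KAT2A_KD, 90.8 and 94.4 in KAT2B_KD, and 98.9 and 80.2 in KAT2AB_KD. All 4 libraries of KAT2B_KD and KAT2AB_KD were below the other 4, and the differences from NT, -0.71 ± 0.23 SE (adjusted p = 0.0799) and -0.76 ± 0.23 SE (adjusted p = 0.0823), did not pass. MYL9 fell on differentiation in KAT2AB_KD (log2 fold change -1.38, adjusted p = 0.000282) and, at the margin, in NT (log2 fold change -0.67, adjusted p = 0.045). The NT call was lost without any 1 of the 4 libraries (adjusted p from 0.0594 to 0.212), with RLE factors (0.0661) and with DESeq2 (0.0679).

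Of the mesenchymal regulators, SNAI2 fell on differentiation, while CDH2 and ZEB1 had few reads. SNAI2 encodes Slug, a zinc-finger repressor that basal keratinocytes express and that falls as they differentiate. In NT it stood at 63.6 and 89.5 CPM at Subconfluent, 63.7 and 69.6 at Confluent and 25.2 and 20.5 at Differentiated and fell 2.92-fold on differentiation (log2 fold change -1.54, adjusted p = 0.000126). It fell in KAT2B_KD too (log2 fold change -1.52, adjusted p = 0.000204), while KAT2A_KD and KAT2AB_KD gave -0.63 ± 0.27 SE (adjusted p = 0.0705) and -0.17 ± 0.27 SE (adjusted p = 0.636). No difference from NT was called; at Subconfluent the KAT2B_KD libraries, 136 and 105 CPM, were above the other 6, which lay between 57.8 and 89.5. CDH2, N-cadherin, did not exceed 2.10 CPM. At Subconfluent it was 0.396 and 0.0859 CPM in NT, 2.10 and 1.93 in KAT2A_KD, 0.304 and 0.392 in KAT2B_KD, and 0.332 and 0.815 in KAT2AB_KD. Both KAT2A_KD libraries were the highest of 8, and the difference from NT did not pass (adjusted p = 0.487). In KAT2B_KD CDH2 was at 0 at Differentiated after 11 reads at Confluent, at least 3.70-fold lower (adjusted p = 0.0349; lost without KAT2B_KD Confluent library 2, adjusted p = 0.128 and without either KAT2B_KD Differentiated library, adjusted p = 0.114 and 0.141).

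The matrix genes held the most frequent knockdown change of the set. MFAP5 encodes a microfibril-associated glycoprotein of elastic fibres. It stood at 73.8 and 63.5 CPM in NT, 18.9 and 17.4 in KAT2A_KD, 26.5 and 20.7 in KAT2B_KD, and 15.7 and 15.7 in KAT2AB_KD at Subconfluent. At Confluent its level was 60.6 and 77.2 CPM in NT, 31.5 and 27.1 in KAT2A_KD, 33.8 and 31.1 in KAT2B_KD, and 28.5 and 27.97 in KAT2AB_KD. All 6 knockdown libraries were below both NT libraries at both stages. At Subconfluent MFAP5 was 3.78-fold lower in KAT2A_KD (log2 fold change -1.92 ± 0.20 SE, adjusted p = 0.000178), 2.91-fold lower in KAT2B_KD (log2 fold change -1.54 ± 0.20 SE, adjusted p = 0.00368) and 4.37-fold lower in KAT2AB_KD (log2 fold change -2.13 ± 0.20 SE, adjusted p = 9.52e-06). Of these the KAT2B_KD call was lost without KAT2B_KD Subconfluent library 2 (adjusted p = 0.0994) and without NT Subconfluent library 1 (adjusted p = 0.0512). At Confluent it was 2.35-, 2.12- and 2.44-fold lower (adjusted p = 0.00323, 0.00977 and 0.000686). The KAT2A_KD call was lost without KAT2A_KD Confluent library 2 (adjusted p = 0.0977) and without NT Confluent library 2 (adjusted p = 0.0864), and the KAT2B_KD call without either KAT2B_KD Confluent library (adjusted p = 0.116 and 0.176) and without NT Confluent library 2 (adjusted p = 0.21). Beside this, the 14 fibroblast markers summed at Subconfluent to 48.1 to 54.4 CPM in NT and to 39.1 to 43.5 over the 6 knockdown libraries. That sum, mostly FAP and PDPN, was lower in every knockdown library, and the part of these markers was not tested.

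At Differentiated MFAP5 was 132 and 143 CPM in NT, 77.3 and 77.95 in KAT2A_KD, 42.5 and 41.3 in KAT2B_KD, and 112 and 72.7 in KAT2AB_KD. The order of the groups there was NT, KAT2AB_KD, KAT2A_KD and KAT2B_KD, in which the KAT2AB_KD and KAT2A_KD libraries overlapped. It was lower than NT in KAT2B_KD (log2 fold change -1.71 ± 0.20 SE, adjusted p = 5.43e-05) and in KAT2A_KD (log2 fold change -0.82 ± 0.19 SE, adjusted p = 0.044), the latter call being lost without any 1 of the 4 libraries (adjusted p from 0.105 to 0.24). KAT2AB_KD gave -0.58 ± 0.19 SE (adjusted p = 0.13) and was not called. MFAP5 rose on differentiation in NT (log2 fold change 0.996, adjusted p = 0.000278), KAT2A_KD (log2 fold change 1.40 ± 0.20 SE, adjusted p = 1.17e-05) and KAT2AB_KD (log2 fold change 1.71 ± 0.20 SE, adjusted p = 9.77e-07). In KAT2B_KD the change was 0.37 ± 0.20 SE (adjusted p = 0.148).

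COL1A1, the alpha-1 chain of type I collagen, had low counts before differentiation and rose in all 4 genotypes. At Subconfluent it was 2.05 and 2.32 CPM in NT, 3.40 and 3.86 in KAT2A_KD, 1.14 and 1.24 in KAT2B_KD, and 6.17 and 7.27 in KAT2AB_KD. At Confluent its level was 2.83 and 1.07 CPM in NT, 3.84 and 3.33 in KAT2A_KD, 2.89 and 3.18 in KAT2B_KD, and 6.19 and 3.82 in KAT2AB_KD. The 2 KAT2AB_KD libraries were the highest of 8 at Subconfluent, and at Confluent they were above both NT libraries but overlapped KAT2A_KD. Their difference from NT was called at Subconfluent (log2 fold change 1.62 ± 0.31 SE, adjusted p = 0.00569) and at Confluent (log2 fold change 1.38 ± 0.32 SE, adjusted p = 0.0233). The first was lost without KAT2AB_KD Subconfluent library 2 (adjusted p = 0.0698) and without either NT Subconfluent library (adjusted p = 0.0899 and 0.0517), the second without KAT2AB_KD Confluent library 1 (adjusted p = 0.353) and without NT Confluent library 2 (adjusted p = 0.318). On differentiation COL1A1 reached 51.1 and 39.7 CPM in NT, 35.1 and 38.6 in KAT2A_KD, 32.4 and 31.01 in KAT2B_KD, and 35.3 and 34.8 in KAT2AB_KD. The rise was 23.5-fold in NT (log2 fold change 4.55 ± 0.32 SE, adjusted p = 9.35e-10), 10.2-fold in KAT2A_KD, 10.4-fold in KAT2B_KD and 6.94-fold in KAT2AB_KD. Both NT libraries were above the 6 knockdown libraries at Differentiated, without a call. At Subconfluent the 14 fibroblast markers summed to 39.1 to 43.5 CPM in KAT2AB_KD and 48.1 to 54.4 in NT, and at Confluent to 35.1 to 35.9 and 35.7 to 45.3; COL1A2, the partner chain of COL1A1, did not exceed 1.75 CPM in any library. The fibroblast sums were mostly FAP and PDPN, and the part of these markers was not tested. SPARC, a collagen-binding matricellular protein, stood in NT at 376 and 418 CPM at Subconfluent, 292 and 258 at Confluent and 147 and 111 at Differentiated. It fell on differentiation by 2.13-, 1.64-, 2.02- and 2.33-fold in NT, KAT2A_KD, KAT2B_KD and KAT2AB_KD, the KAT2A_KD call being lost without KAT2A_KD Confluent library 1 (adjusted p = 0.0718) and without KAT2A_KD Differentiated library 2 (adjusted p = 0.0853). Knockdown was not called to change it.

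The knockdown genotypes were also compared with one another, in 9 comparisons. KAT2A_KD and KAT2B_KD differed most at Differentiated, where 6 genes of the set were higher in KAT2A_KD and 0 lower, against a background of 2.38% (2.02% higher). On the lower side 2 genes had an unadjusted p below 0.05 and DESeq2 called 0. The 6 were PMEPA1 (1.56 ± 0.27 SE, adjusted p = 0.00246), SKIL (1.22 ± 0.22 SE, adjusted p = 0.00339), INHBA (1.06 ± 0.22 SE, adjusted p = 0.0126), MFAP5 (0.89 ± 0.20 SE, adjusted p = 0.0169), CTGF (2.81 ± 0.67 SE, adjusted p = 0.0268) and FSTL3 (0.83 ± 0.21 SE, adjusted p = 0.0377). Each was lost without at least 1 library. PMEPA1 was lost without KAT2A_KD Differentiated library 1 (adjusted p = 0.077), SKIL without KAT2A_KD Differentiated library 1 (adjusted p = 0.0956) and without KAT2B_KD Differentiated library 2 (adjusted p = 0.0517) and CTGF without KAT2A_KD Differentiated library 1 (adjusted p = 0.26) and without KAT2B_KD Differentiated library 1 (adjusted p = 0.23). INHBA, MFAP5 and FSTL3 were lost without any 1 of the 4 libraries, with adjusted p from 0.0527 to 0.0931, from 0.0666 to 0.103 and from 0.0815 to 0.236.

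At Subconfluent TAGLN (1.70 ± 0.31 SE, adjusted p = 0.00871) and COL1A1 (1.59 ± 0.35 SE, adjusted p = 0.0395) were higher in KAT2A_KD than in KAT2B_KD and 0 genes were lower (background 0.533%; 4 lower unadjusted, 0 by DESeq2). Both calls were lost without any 1 library, at adjusted p from 0.0563 to 0.202 and from 0.168 to 0.458. At Confluent edgeR called 0 genes between KAT2A_KD and KAT2B_KD (background 0.286%), with 2 higher and 4 lower at an unadjusted p below 0.05 and 1 higher and 1 lower by DESeq2.

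KAT2AB_KD and KAT2B_KD differed at all 3 stages. At Subconfluent 3 genes were higher and 2 lower in KAT2AB_KD (background 2.61%). TAGLN (3.26 ± 0.31 SE, adjusted p = 4.58e-06) and COL1A1 (2.48 ± 0.34 SE, adjusted p = 0.000136) kept their calls without any 1 library. CTGF (1.54 ± 0.38 SE, adjusted p = 0.0314) was lost without either KAT2AB_KD Subconfluent library (adjusted p = 0.27 and 0.0828) and without KAT2B_KD Subconfluent library 2 (adjusted p = 0.226). On the lower side, SERPINE2 (-1.32 ± 0.25 SE, adjusted p = 0.00421) was lost without KAT2AB_KD Subconfluent library 2 (adjusted p = 0.0894) and without KAT2B_KD Subconfluent library 1 (adjusted p = 0.0516). SNAI2 (-1.02 ± 0.27 SE, adjusted p = 0.0471) was lost without any 1 of the 4 libraries (adjusted p from 0.0606 to 0.383) and with RLE factors (0.0502). At Confluent TAGLN was higher (2.02 ± 0.27 SE, adjusted p = 0.000264) and SERPINE2, LTBP2 and FSTL3 were lower (background 1.61%), at -1.20 ± 0.25 SE (adjusted p = 0.0129), -1.35 ± 0.33 SE (adjusted p = 0.0398) and -0.81 ± 0.20 SE (adjusted p = 0.0466). SERPINE2 was lost without KAT2AB_KD Confluent library 1 (adjusted p = 0.204) and without either KAT2B_KD Confluent library (adjusted p = 0.0612 and 0.12). LTBP2 and FSTL3 were lost without any 1 library, at adjusted p from 0.0757 to 0.305 and from 0.0654 to 0.44.

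At Differentiated 6 genes were higher in KAT2AB_KD than in KAT2B_KD and 0 lower, where 11.0% of all genes were called (6.5% higher). On the lower side 2 had an unadjusted p below 0.05 and DESeq2 called 0. KAT2B itself stood at 5.85 and 18.9 CPM in KAT2AB_KD and 4.58 and 8.59 in KAT2B_KD, and its part was not tested. PMEPA1 (1.81 ± 0.27 SE, adjusted p = 0.000222), SKIL (1.32 ± 0.22 SE, adjusted p = 0.000541), INHBA (1.19 ± 0.22 SE, adjusted p = 0.0016) and MFAP5 (1.14 ± 0.20 SE, adjusted p = 0.000849) kept their calls without any 1 library. CTGF (3.21 ± 0.64 SE, adjusted p = 0.00299) was lost without KAT2B_KD Differentiated library 1 (adjusted p = 0.0506) and CYR61 (1.16 ± 0.28 SE, adjusted p = 0.00993) without KAT2AB_KD Differentiated library 1 (adjusted p = 0.0618) and without KAT2B_KD Differentiated library 1 (adjusted p = 0.112). The 14 fibroblast markers summed to 32.2 to 36.3 CPM in KAT2AB_KD and 14.2 to 17.7 in KAT2B_KD at this stage, mostly FAP and PDPN. Among them FAP was 3.20-fold higher in KAT2AB_KD, while 11 of the 14 never reached 2 CPM in any library. What part these markers had was not tested.

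Between KAT2AB_KD and KAT2A_KD edgeR called 0 genes of the set at each stage (backgrounds 0.0%, 0.00635% and 0.317%). At an unadjusted p below 0.05, 2 were higher and 0 lower at Subconfluent, 1 higher and 2 lower at Confluent, and 2 higher and 4 lower at Differentiated. DESeq2 called 1 higher at Subconfluent and 0 at the other stages. TAGLN had the smallest unadjusted p, with a log2 difference of 1.56 (95% interval 0.98 to 2.13; adjusted p = 0.187) at Subconfluent. A p above the threshold does not show that the 2 genotypes were alike.

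Whether a stage change itself differed between a knockdown genotype and NT was tested in 6 contrasts. In 5 of them edgeR called 0 genes of the set. For Confluent against Subconfluent the backgrounds were 0.0%, 0.0% and 0.0% in KAT2A_KD, KAT2B_KD and KAT2AB_KD, and 3, 4 and 7 genes had an unadjusted p below 0.05 (DESeq2 called 0 in each). For Differentiated against Confluent the backgrounds were 0.616% in KAT2A_KD and 0.888% in KAT2B_KD. There 8 and 11 genes had an unadjusted p below 0.05, and DESeq2 called 0 and 1. In KAT2AB_KD 3 genes were higher and 2 lower (background 1.33%). The change of CTGF, CYR61 and LTBP2 was more positive in KAT2AB_KD than in NT, and that of TAGLN and COL1A1 more negative.

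TAGLN had the smallest adjusted p of the 5. Its log2 change on differentiation was 0.47 in NT and -1.53 in KAT2AB_KD, a difference of -1.99 ± 0.38 SE (adjusted p = 0.00907), lost without NT Confluent library 2 (adjusted p = 0.0672) and without NT Differentiated library 2 (adjusted p = 0.0596). CYR61 changed by -1.49 in NT and 0.25 in KAT2AB_KD, a difference of 1.74 ± 0.39 SE (adjusted p = 0.0275). It was lost without either KAT2AB_KD Confluent library (adjusted p = 0.122 and 0.0582), without KAT2AB_KD Differentiated library 1 (adjusted p = 0.107), without NT Confluent library 1 (adjusted p = 0.165) and without NT Differentiated library 2 (adjusted p = 0.147). LTBP2 changed by -1.32 and 0.65, a difference of 1.97 ± 0.46 SE (adjusted p = 0.0362), lost without KAT2AB_KD Confluent library 2 (adjusted p = 0.151), without KAT2AB_KD Differentiated library 2 (adjusted p = 0.124), without either NT Confluent library (adjusted p = 0.0975 and 0.115) and without either NT Differentiated library (adjusted p = 0.0611 and 0.201). COL1A1 rose by 4.55 in NT and 2.79 in KAT2AB_KD, a difference of -1.76 ± 0.41 SE (adjusted p = 0.0366). That one was lost without KAT2AB_KD Confluent library 1 (adjusted p = 0.23), without either KAT2AB_KD Differentiated library (adjusted p = 0.103 and 0.0633), without NT Confluent library 2 (adjusted p = 0.215) and without either NT Differentiated library (adjusted p = 0.14 and 0.0596). For CTGF the fitted difference, 4.30 ± 0.89 SE (adjusted p = 0.0157), depends on the prior count, since NT held 3 reads at Differentiated. It was lost without KAT2AB_KD Differentiated library 1 (adjusted p = 0.062) and without NT Differentiated library 2 (adjusted p = 0.121).

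**Figure D4:**
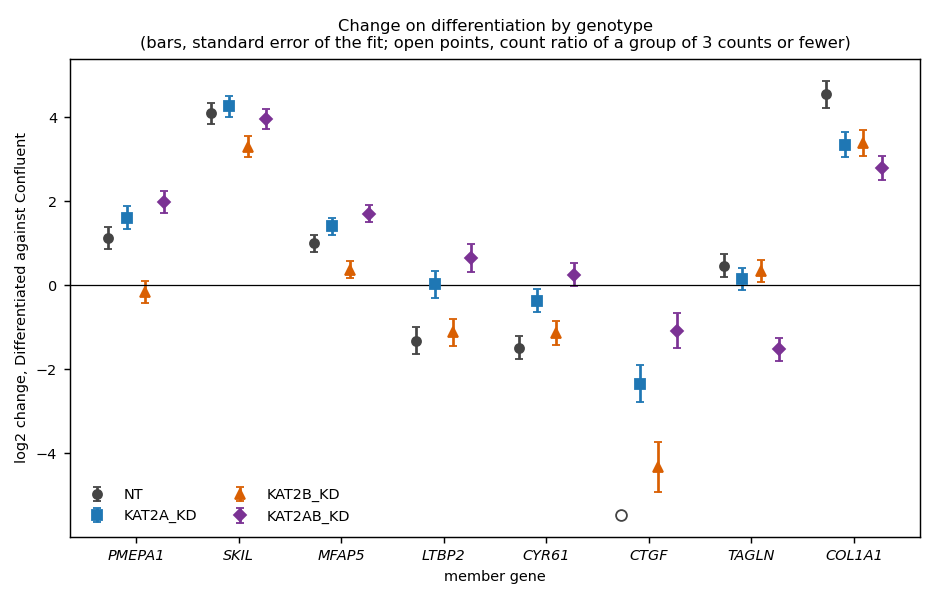
Log2 change from Confluent to Differentiated (vertical axis) of 8 genes (horizontal axis) in the 4 genotypes, with the standard error of the fit as bars; the open point is the count ratio of CTGF in NT, which held 3 reads at Differentiated. TAGLN in KAT2AB_KD stands at -1.53 while the other 3 genotypes stand above 0, and PMEPA1 in KAT2B_KD stands at -0.17 while the other 3 are above 1.

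Other genes of the pathway were read from a separate list of 46 ligands, receptors, modulators and SMAD partners, 44 of which were tested. On differentiation of NT 17 rose and 8 fell (median log2 change 0.76, beside -0.01 over all genes, of which 50.4% were called, 24.3% higher and 26.1% lower). Those with the lowest p were FST, the activin-binding follistatin (-4.15 ± 0.30 SE, adjusted p = 1.29e-09), NEDD4L, a ubiquitin ligase acting on SMADs (-2.77 ± 0.22 SE, adjusted p = 3.97e-09), THBS1, thrombospondin 1, which activates latent TGF-beta (-2.86 ± 0.26 SE, adjusted p = 2.6e-08), and FURIN, the protease that cleaves the TGF-beta precursor (1.96 ± 0.21 SE, adjusted p = 2.02e-07). At the first step in NT 0 were higher and 3 lower, with 2 higher unadjusted and 0 by DESeq2; the 3 were THBS1, SMURF2 and ITGB5, and 0.901% of all genes were called. Against NT, KAT2AB_KD at Differentiated had 3 higher and 0 lower (background 2.74%): FST (1.74 ± 0.28 SE, adjusted p = 0.00205), THBS1 (1.45 ± 0.25 SE, adjusted p = 0.00375) and the TGF-beta-activating integrin subunit ITGB8 (1.05 ± 0.26 SE, adjusted p = 0.0377). KAT2B_KD at Differentiated (background 4.85%) had 1 higher, the repressor TGIF2, and 3 lower, among them the stress-induced ligand GDF15 (-2.77 ± 0.50 SE, adjusted p = 0.00282). In KAT2A_KD edgeR called 0 at each stage, where 0.343%, 0.647% and 1.22% of all genes were called. At Subconfluent 1 was higher and 3 lower at an unadjusted p below 0.05 (DESeq2 called 0 and 1), at Confluent 0 and 3 (DESeq2 0), and at Differentiated 6 and 4 (DESeq2 4 and 1). The Subconfluent and Confluent comparisons of KAT2B_KD and KAT2AB_KD with NT are not given for this list.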

How the data were processed

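Polyadenylated RNA of 24 libraries was prepared with a directional kit, per the labels' protocols. FastQC, Bowtie2, featureCounts, DESeq2 and build hg19 are named in the submitters' processing notes; versions, annotation and strand setting are not given in the sources used here. The deposited counts are raw reads per gene; a deposited table of normalised signal, each column being the counts divided by 1 value per library, was not used for tests, and 1 column of no sample was not used. The 2 libraries of a group are numbered 1 and 2 in accession order, which only names them; the replicate numbers of the deposited sample table, 2 and 3, are another kind of label and were used for the block alone.
The counts were fitted with edgeR 4.0.16 (quasi-likelihood, TMM scaling, filterByExpr, R 4.3.3, limma 3.58.1) over all 12 groups without covariates, and p-values were Benjamini-Hochberg adjusted over 15757 genes within each of 32 comparisons. CPM use TMM-scaled library totals. With 8010178 to 16054003 counts a library, 3 counts over a group (the floor) stood for 0.0900 to 0.138 CPM, and intervals on counts cover counting error only. Overlapping genes could share reads. Alternatives were RLE scaling, no filter, DESeq2 1.42.0, a block on the replicate number and leaving out each library. Genes and lists were chosen with earlier results of these data known. Genes called in a knockdown or NT stage comparison are named with values, at most 8 a comparison in full, lowest p first. Promoter windows came from RefSeq. At most 4 genes of another list are named a comparison, lowest p first.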

Additional observations from a re-analysis of the deposited data

Results flagged for a closer look

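In 5 genes the change from Confluent to Differentiated differed between KAT2AB_KD and NT by the test of the difference itself (edgeR, adjusted over all genes tested). On the log2 scale the difference was -1.99 for TAGLN, the actin-binding protein transgelin, which fell in KAT2AB_KD and was not called in NT. It was 1.74 for CYR61 and 4.30 for CTGF, the matricellular proteins, and 1.97 for the latent-binding family protein LTBP2. It was -1.76 for COL1A1, which rose in both genotypes. Each call was lost without at least 1 library, and the CTGF value rests on 3 reads in the NT Differentiated libraries. These comparisons share the NT libraries with the others against NT.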

How the results depend on the processing

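Of the 162 calls of single genes in all 32 comparisons, 84 were kept without each library in turn and 78 were not; RLE scaling lost 3, DESeq2 lost 2, and none was lost without the filter or with the replicate block. None of these settings reversed a direction. The cause of these moves was not tested, though leaving out a library also leaves fewer samples. Without the filter on low counts the number of genes of the set called moved by over 1.5 times to 11 (NT Confluent against Subconfluent, from 5), 10 (KAT2A_KD Confluent against Subconfluent, from 4), 11 (KAT2AB_KD Confluent against Subconfluent, from 7), 5 (KAT2A_KD against NT at Subconfluent, from 1), 2 (KAT2B_KD against NT at Subconfluent, from 1), 2 (KAT2B_KD against NT at Confluent, from 1), 5 (KAT2A_KD against NT at Differentiated, from 3), 2 (KAT2A_KD against KAT2B_KD at Confluent, from 0), 1 (KAT2AB_KD against KAT2A_KD at Subconfluent, from 0), 1 (KAT2AB_KD against KAT2A_KD at Differentiated, from 0), 2 (KAT2A_KD minus NT, Differentiated vs Confluent, from 0), 1 (KAT2B_KD minus NT, Differentiated vs Confluent, from 0) and 8 (KAT2AB_KD minus NT, Differentiated vs Confluent, from 5). With DESeq2 it moved to 7 (KAT2A_KD Confluent against Subconfluent, from 4), 11 (KAT2AB_KD Confluent against Subconfluent, from 7), 2 (KAT2B_KD against NT at Subconfluent, from 1), 10 (KAT2AB_KD against NT at Subconfluent, from 6), 5 (KAT2A_KD against NT at Differentiated, from 3), 2 (KAT2A_KD against KAT2B_KD at Confluent, from 0), 1 (KAT2AB_KD against KAT2A_KD at Subconfluent, from 0), 1 (KAT2B_KD minus NT, Differentiated vs Confluent, from 0) and 9 (KAT2AB_KD minus NT, Differentiated vs Confluent, from 5). Leaving out 1 library gave the following lowest and highest numbers called: 1 to 1 (NT Confluent against Subconfluent, from 5), 1 to 3 (KAT2A_KD Confluent against Subconfluent, from 4), 2 to 4 (KAT2B_KD Confluent against Subconfluent, from 8), 3 to 3 (KAT2AB_KD Confluent against Subconfluent, from 7), 0 to 1 (KAT2B_KD against NT at Subconfluent, from 1), 2 to 4 (KAT2AB_KD against NT at Subconfluent, from 6), 0 to 1 (KAT2A_KD against NT at Confluent, from 3), 0 to 1 (KAT2B_KD against NT at Confluent, from 1), 3 to 5 (KAT2AB_KD against NT at Confluent, from 6), 0 to 1 (KAT2A_KD against NT at Differentiated, from 3), 0 to 4 (KAT2AB_KD against NT at Differentiated, from 4), 0 to 0 (KAT2A_KD against KAT2B_KD at Subconfluent, from 2), 0 to 5 (KAT2A_KD against KAT2B_KD at Differentiated, from 6), 2 to 3 (KAT2AB_KD against KAT2B_KD at Subconfluent, from 5), 1 to 2 (KAT2AB_KD against KAT2B_KD at Confluent, from 4), 0 to 1 (KAT2A_KD minus NT, Differentiated vs Confluent, from 0) and 0 to 5 (KAT2AB_KD minus NT, Differentiated vs Confluent, from 5). The replicate block, on the numbers of the deposited sample table, moved no number of members called by over 1.5 times. Those numbers were not taken to pair libraries, and the sources used here do not say what they mark. The deviations of same-numbered libraries correlated over 0.1 in 36 of 66 pairs of groups (median 0.127, lowest -0.579, highest 0.702). The main fit does not model any spread shared by same-numbered libraries. Over all genes the number called moved by over 1.5 times in 26 comparisons without the filter and in 26 with DESeq2; as the main, unfiltered and DESeq2 numbers these were 142, 430 and 385 (NT Confluent against Subconfluent), 37, 194 and 146 (KAT2A_KD Confluent against Subconfluent), 254, 548 and 460 (KAT2B_KD Confluent against Subconfluent), 96, 296 and 244 (KAT2AB_KD Confluent against Subconfluent), 54, 223 and 133 (KAT2A_KD against NT at Subconfluent), 14, 104 and 66 (KAT2B_KD against NT at Subconfluent), 425, 762 and 733 (KAT2AB_KD against NT at Subconfluent), 102, 302 and 188 (KAT2A_KD against NT at Confluent), 73, 212 and 152 (KAT2B_KD against NT at Confluent), 359, 747 and 601 (KAT2AB_KD against NT at Confluent), 192, 506 and 488 (KAT2A_KD against NT at Differentiated), 431, 782 and 739 (KAT2AB_KD against NT at Differentiated), 84, 210 and 129 (KAT2A_KD against KAT2B_KD at Subconfluent), 45, 204 and 100 (KAT2A_KD against KAT2B_KD at Confluent), 375, 675 and 615 (KAT2A_KD against KAT2B_KD at Differentiated), 0, 90 and 10 (KAT2AB_KD against KAT2A_KD at Subconfluent), 411, 684 and 695 (KAT2AB_KD against KAT2B_KD at Subconfluent), 1, 92 and 15 (KAT2AB_KD against KAT2A_KD at Confluent), 254, 520 and 396 (KAT2AB_KD against KAT2B_KD at Confluent), 50, 240 and 189 (KAT2AB_KD against KAT2A_KD at Differentiated), 0, 23 and 1 (KAT2A_KD minus NT, Confluent vs Subconfluent), 97, 272 and 200 (KAT2A_KD minus NT, Differentiated vs Confluent), 0, 18 and 2 (KAT2B_KD minus NT, Confluent vs Subconfluent), 140, 346 and 356 (KAT2B_KD minus NT, Differentiated vs Confluent), 0, 41 and 10 (KAT2AB_KD minus NT, Confluent vs Subconfluent) and 210, 548 and 431 (KAT2AB_KD minus NT, Differentiated vs Confluent). With the replicate block it moved in 1 comparison, from 1 to 3 (KAT2AB_KD against KAT2A_KD at Confluent). Leaving out 1 library moved it by over 1.5 times in the comparisons that follow, so the shares of all genes called given beside the counts move too; the number with all libraries and the lowest and highest without a library were 142, 40 and 91 (NT Confluent against Subconfluent), 37, 5 and 44 (KAT2A_KD Confluent against Subconfluent), 254, 76 and 92 (KAT2B_KD Confluent against Subconfluent), 96, 20 and 41 (KAT2AB_KD Confluent against Subconfluent), 54, 11 and 18 (KAT2A_KD against NT at Subconfluent), 14, 0 and 8 (KAT2B_KD against NT at Subconfluent), 425, 150 and 157 (KAT2AB_KD against NT at Subconfluent), 102, 35 and 57 (KAT2A_KD against NT at Confluent), 73, 20 and 51 (KAT2B_KD against NT at Confluent), 359, 150 and 289 (KAT2AB_KD against NT at Confluent), 192, 17 and 99 (KAT2A_KD against NT at Differentiated), 764, 281 and 534 (KAT2B_KD against NT at Differentiated), 431, 67 and 326 (KAT2AB_KD against NT at Differentiated), 84, 31 and 45 (KAT2A_KD against KAT2B_KD at Subconfluent), 45, 2 and 35 (KAT2A_KD against KAT2B_KD at Confluent), 375, 97 and 292 (KAT2A_KD against KAT2B_KD at Differentiated), 411, 144 and 270 (KAT2AB_KD against KAT2B_KD at Subconfluent), 1, 0 and 23 (KAT2AB_KD against KAT2A_KD at Confluent), 254, 78 and 195 (KAT2AB_KD against KAT2B_KD at Confluent), 50, 6 and 56 (KAT2AB_KD against KAT2A_KD at Differentiated), 1739, 682 and 1956 (KAT2AB_KD against KAT2B_KD at Differentiated), 97, 45 and 83 (KAT2A_KD minus NT, Differentiated vs Confluent), 140, 5 and 111 (KAT2B_KD minus NT, Differentiated vs Confluent) and 210, 92 and 284 (KAT2AB_KD minus NT, Differentiated vs Confluent). RLE scaling shifted the median of all genes by at most 0.06 on the log2 scale. SMAD6, CTGF, CDH2, BAMBI, AKAP12 and ID2 had a few reads in some groups. With that and 2 libraries a group, smaller differences were not detectable at this depth.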

Other observations

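Mesenchymal genes outside the set were read from a list of 34, of which 24 were tested with edgeR. On differentiation of NT, where 50.4% of all genes were called (24.3% higher, 26.1% lower), 4 rose and 13 fell, with VIM, the intermediate filament vimentin, at a log2 fold change of -4.75 ± 0.36 SE, adjusted p = 2.7e-09, and the collagen crosslinking enzyme LOX at 5.42 ± 0.48 SE, adjusted p = 2.03e-08. Against NT, VIM was lower in KAT2AB_KD at Subconfluent (-3.31 ± 0.32 SE, adjusted p = 9.52e-06) and Confluent (-3.07 ± 0.32 SE, adjusted p = 1.83e-05), and higher in KAT2B_KD at Differentiated (1.98 ± 0.36 SE, adjusted p = 0.00282). TNC, the matrix glycoprotein tenascin C, was higher in KAT2AB_KD at Subconfluent (2.17 ± 0.30 SE, adjusted p = 0.000253) and Confluent (1.97 ± 0.30 SE, adjusted p = 0.000596). Of 21 YAP and SRF target genes, 3 were higher and 11 lower on differentiation of NT, and at Differentiated 5 were higher and 0 lower in KAT2AB_KD than in KAT2B_KD (1 lower at an unadjusted p below 0.05 and 0 by DESeq2), where 11.0% of all genes were called (6.5% higher). Of 20 epithelial genes, 14 were higher and 4 lower on differentiation of NT, and at Differentiated 0 were higher and 3 lower in KAT2B_KD than in NT (1 higher at an unadjusted p below 0.05 and 0 by DESeq2), where 4.85% of all genes were called. These lists were chosen with earlier results known, and their calls were read with all libraries in the fit. Only some comparisons are given for each list, and they do not stand for the others.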
